A study of Mus musculus with 6 samples.

Results

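The nuclear genes for the subunits of the mitochondrial respiratory chain and of the ATP synthase were described in endothelial cells sorted from mouse brain tumors and from normal brain. Members were taken by gene symbol. The patterns were Nduf followed by a, b, c, s or v and a number, Sdha to Sdhd, and all symbols that start with Uqcr, with Cox and a digit of 4 to 8, or with Atp5, together with Ndufab1, Cyc1 and Cycs. These patterns found 86 of the 24421 gene symbols in the files. Of these, 36 belong to complex I, 4 to complex II, 9 to complex III, 19 to complex IV and 17 to complex V, and Cycs is described apart. Ndufa4 was placed with complex IV, where later biochemical work found its protein.

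The glioma group held 3 libraries from endothelial cells of C57BL/6 mice, taken 3 weeks after GL26l glioma cells had been injected into the brain. The normal group held 3 libraries from endothelial cells of normal brain of the same strain. Neither ages, sexes and numbers of mice nor the surface markers of the sort are stated in the sources used here. The RNA sets are called independent, and no source ties each set to its own mouse. The p-values therefore reflect only how far these samples differ among themselves, which may be technical. The question asked is how tumor vessels and brain vessels differ in gene expression.

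The respiratory chain lies in the inner mitochondrial membrane. Complexes I and II take electrons from NADH and succinate and pass them to ubiquinone, complex III passes them to cytochrome c, and complex IV passes them to oxygen. Complexes I, III and IV pump protons, and complex V, the ATP synthase, uses the gradient to make ATP. Most subunits are encoded in the nucleus and some in mitochondrial DNA. Endothelial cells are known for relying largely on glycolysis, and brain endothelium has often been described as rich in mitochondria compared with other endothelium.

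Promoters of many of these genes are known to hold sites of the factors NRF1 and GABP, which tie nuclear subunits to mitochondrial biogenesis. Upstream windows of 250 bases were taken from RefSeq (GRCm38.p6, the build that mm10 stands for), which gave one for 68 of the 86 members. The letters GCATGCGC, the core of the NRF1 site, stood on either strand in 9 of these 68 members (13.2%), against 2.56% of all 27025 symbols with a window. The letters CCGGAAG, bound by GABP and other ETS factors, stood in 12 of 68 (17.6%), against 7.83% of all. The letters TGACGTCA, bound by CREB and ATF factors, stood in 5 (7.35%), against 1.77%, and the letters AAGATGGC, bound by YY1, in 1 (1.47%), against 1.83%. A match describes the letters only. 3 windows are shown because they belong to genes on which the results below turn or that carry the motifs. They are the windows of Cycs, the gene of cytochrome c, of Cox6a1, a complex IV subunit with overlapping NRF1 matches and an ETS match, and of Cox7a2, the member with the smallest p, whose window holds none of these letters. Capitals mark the motif matches, and each window ends at the base before the start annotated in RefSeq. In GENCODE M21, the source of the gene positions below, Cox6a1 and Cox7a2 start at 115348981 and 79759878, inside their windows. The ETS match of Cox6a1 thus lies within its GENCODE gene.
Cycs (chr6:50566570-50566819, minus strand): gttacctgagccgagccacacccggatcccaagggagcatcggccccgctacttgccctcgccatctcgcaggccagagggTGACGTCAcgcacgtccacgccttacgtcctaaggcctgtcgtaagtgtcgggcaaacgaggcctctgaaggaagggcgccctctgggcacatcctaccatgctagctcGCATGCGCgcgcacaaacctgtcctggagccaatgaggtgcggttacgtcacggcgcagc
Cox6a1 (chr5:115348959-115349208, minus strand): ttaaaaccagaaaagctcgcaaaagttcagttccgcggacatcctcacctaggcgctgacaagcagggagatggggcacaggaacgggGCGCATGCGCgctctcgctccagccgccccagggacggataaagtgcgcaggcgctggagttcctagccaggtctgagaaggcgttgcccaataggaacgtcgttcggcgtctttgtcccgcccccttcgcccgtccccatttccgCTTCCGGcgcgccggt
Cox7a2 (chr9:79759854-79760103, minus strand): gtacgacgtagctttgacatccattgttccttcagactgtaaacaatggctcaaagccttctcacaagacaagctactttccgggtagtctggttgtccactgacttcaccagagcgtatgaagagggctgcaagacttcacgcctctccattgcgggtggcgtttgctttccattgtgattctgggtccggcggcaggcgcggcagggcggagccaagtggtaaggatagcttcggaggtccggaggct

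Values are the deposited log2(x + 1) levels from 3′ end sequencing, in which a transcript gives reads at its end whatever its length. Levels of different genes are set side by side on that ground only. For 30 of the 86 members some end sequence also occurs in other genes, and how reads were counted is not given. A group's values are given in the order of replicates 1, 2 and 3. Sequencing depth is unknown, since the files hold no counts. Genes above 0 numbered 10013 to 13108 in the glioma libraries and 7446 to 13072 in the normal libraries, with the lowest count in normal replicate 1. That library's lowest value above 0 was 7.43, so a gene it missed differs by at least that much from one it just detected. Normal replicates 2 and 3 resembled each other closely (Pearson's r = 0.97 across 5880 genes above 0 in all libraries), while normal replicate 1 correlated with them at 0.58 and 0.60, below its 0.66 and 0.67 with glioma replicates 1 and 2. It therefore stands apart, and the median differences of the complexes are given with and without it. The column headers of glioma replicates 2 and 3 contain words for control, and that of glioma replicate 3 does not name glioma. Both were placed in the glioma group by their sample titles, and whether they served as controls of another experiment is not given in the sources used here. Numbers in the column headers that may be dates are shared within groups and never across them, so such a batch and the group cannot be told apart. Endothelial markers were above 0 in all 6 libraries for 15 of 15 genes, with Pecam1 at 14.89, 15.37 and 15.99 in glioma and 15.31, 16.39 and 15.99 in normal libraries. Their median difference, glioma minus normal, was -0.24. Egfl7, the highest of them, was the 1 whose groups did not overlap, where 6.37% of all genes lay wholly lower in glioma. It was at 15.83, 17.07 and 15.56 in glioma and 17.31, 17.62 and 17.62 in normal libraries.

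The median tested subunit gene ranked above the median tested gene in all 6 libraries. The members held 0.781%, 0.642% and 0.942% of the summed back-transformed signal in the glioma libraries, against 0.735%, 0.546% and 0.559% in the normal libraries, so the groups overlapped. The median tested member stood at percentile 88.0, 88.0 and 90.3 of all gene symbols in glioma and at 85.2, 85.7 and 86.1 in normal libraries. The median tested gene of any kind stood at percentile 75.0, 75.6 and 75.4 in glioma and 75.4, 75.7 and 75.7 in normal libraries. On the log2 scale the medians over the tested members were 9.95, 9.96 and 10.32 in glioma and 9.56, 9.61 and 9.68 in normal libraries. Over all tested genes the medians were 8.18, 8.26 and 8.23 in glioma and 8.23, 8.27 and 8.27 in normal libraries, nearly level. The values were taken to be quantile-normalized over 6 libraries, which by itself brings these medians and percentiles of all tested genes close together. Of the 86 members, 80 passed the filter on low values and 68 were above 0 in every library. The 6 that did not pass were the complex IV isoforms Cox6a2, Cox6b2, Cox7a1, Cox7b2, Cox8b and Cox8c.

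**Figure D1:**
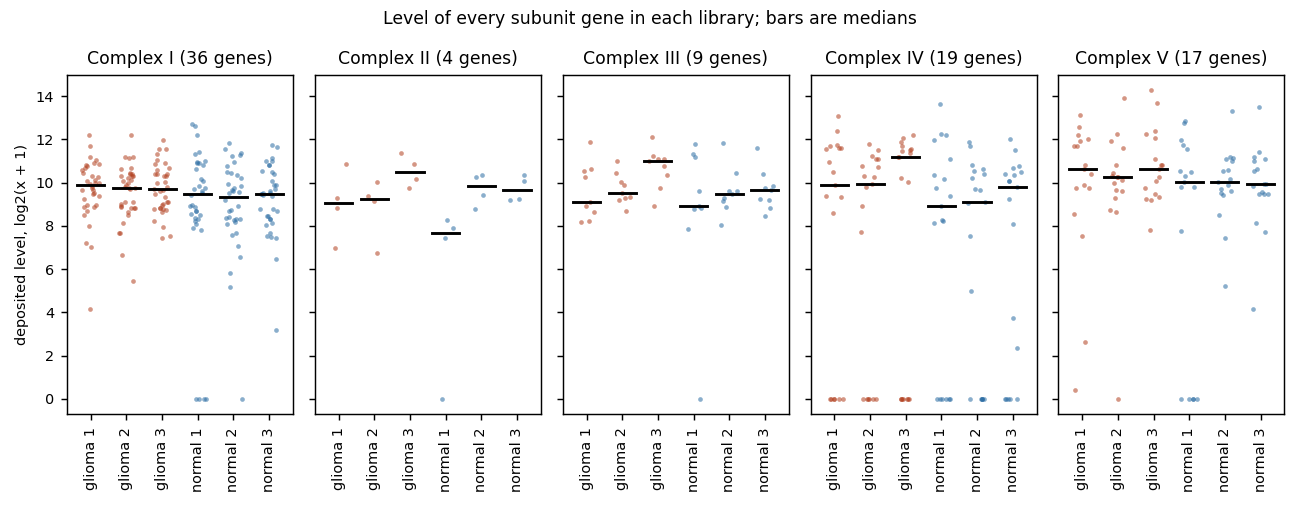
Deposited log2(x + 1) level of every subunit gene (points) in each glioma and normal library, by complex, with the median over all members of the complex as a bar. The medians of complexes I, IV and V were higher in every glioma library than in any normal library, those of complexes II and III overlapped, and points at 0 are genes listed at 0.

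No member passed the test between glioma and normal endothelium. limma over 11862 genes, with Benjamini-Hochberg adjustment, called 0 genes (0.0% of those tested, with 509 at an unadjusted p under 0.05), and its smallest adjusted p was 0.875. At an unadjusted p under 0.05, 1 of 80 tested members was higher in glioma, where 2.35% of all genes were, and 1 was lower, where 1.94% were. Together these are 2.5% of the members against 4.29% of all genes. All glioma values exceeded all normal values for 11 members, where 6.91% of all genes did, and all lay below for 2, where 6.37% did. That makes 16.2% of members against 13.3% of all genes, a share near the background when both directions are pooled. By direction, 11 of 80 members were wholly higher and 2 of 80 wholly lower, while the shares of all genes were alike. No test of this split was run.

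The differences of the members nevertheless had mostly the same sign. The difference, glioma minus normal on the log2 scale, was above 0 for 60 of 80 tested members (75.0%), against 51.4% of all genes, and its median was 0.56, against 0.05. Among the members above 0 in all libraries it was above 0 for 50 of 68, with a median of 0.47 against -0.18 for all such genes. Without normal replicate 1 it was above 0 for 52 of 80 (65.0%), against 40.5% of all genes, with medians of 0.48 and -0.35. The within-group SD of a single member had a median of 0.87. It describes the spread of single genes and is no test of the median over the members, for which no test was run. By complex, the median difference was 0.56 for complex I, 0.76 for complex II, 0.85 for complex III, 0.47 for complex IV and 0.47 for complex V. Without normal replicate 1 it was 0.61, -0.29, 0.06, 0.25 and 0.47, so complex II turned below 0 and complex III came close to 0. Without it, 1 of the 4 complex II genes had a difference above 0.

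**Figure D2:**
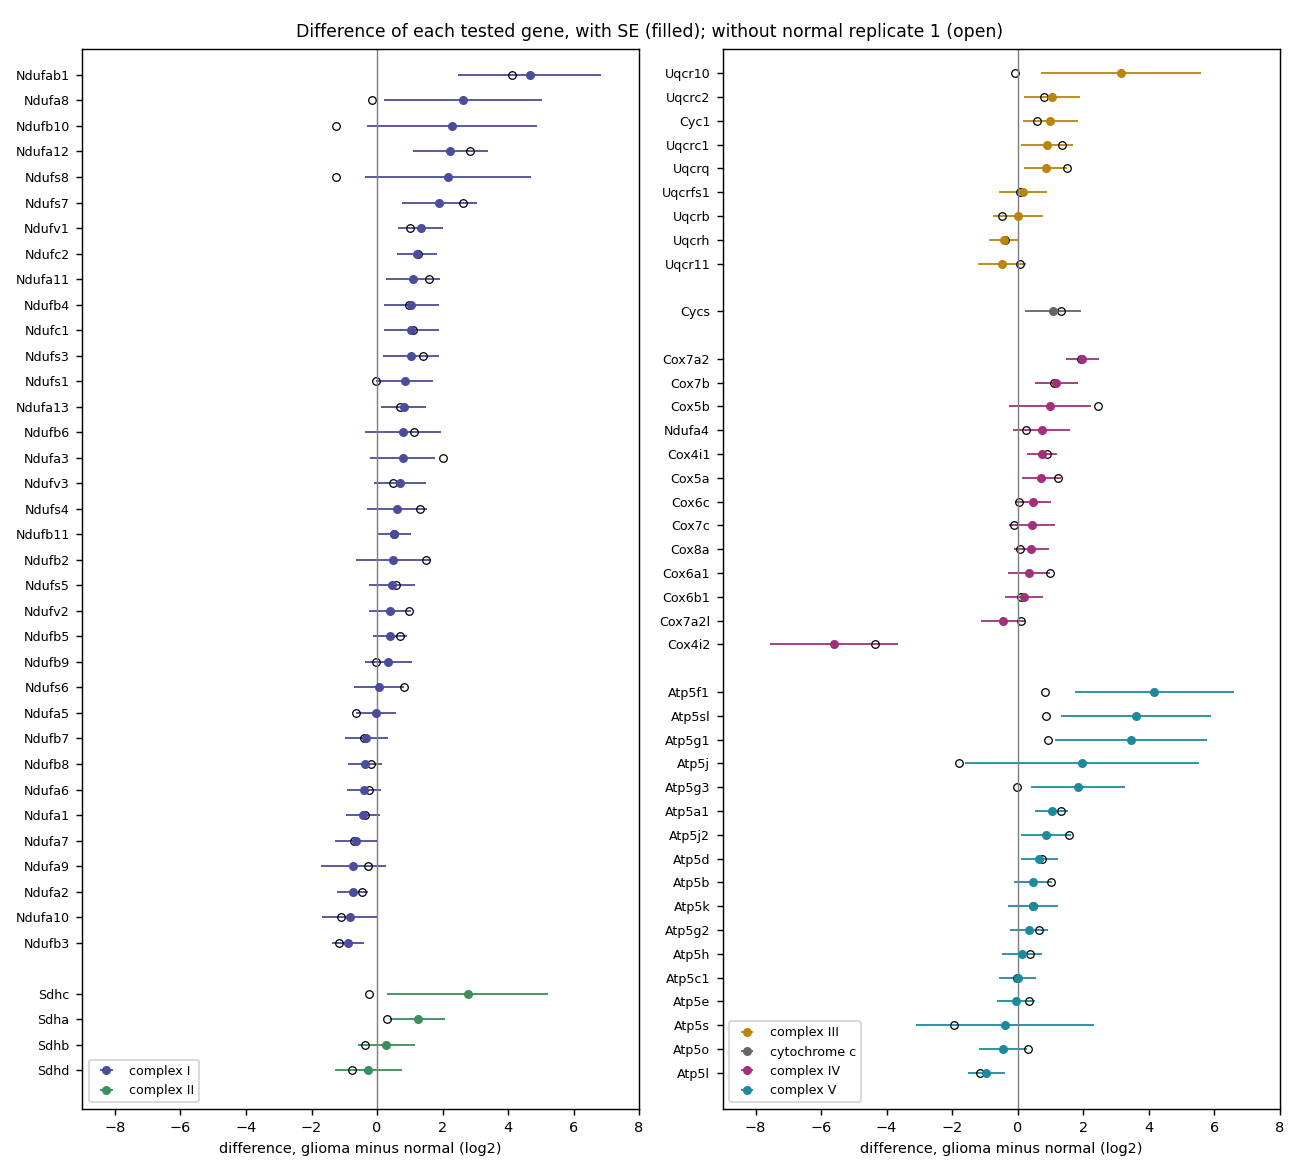
Difference of tested subunit genes, glioma minus normal in log2 units, with its limma SE (filled points and lines), and the same difference without normal replicate 1 (open points). Most points lie to the right of 0, and the wide bars belong to genes listed at 0 in normal replicate 1 or in other libraries.

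Complex I, the NADH dehydrogenase, has core subunits that carry the flavin and the iron-sulfur clusters, and many accessory subunits around them. Its 36 genes had library medians of 9.88, 9.77 and 9.69 in glioma and 9.47, 9.35 and 9.49 in normal libraries, and the groups did not overlap. Their share of the summed signal was 0.243%, 0.217% and 0.239% in glioma and 0.274%, 0.198% and 0.198% in normal libraries, which do overlap. All 36 were tested, 26 with a difference above 0. The 7 nuclear core subunits had medians of 9.85, 9.75 and 9.45 in glioma and 8.57, 8.93 and 9.36 in normal libraries. Their differences were all above 0, with a median of 1.04, but without normal replicate 1 this held for 5 of 7.

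Ndufv1, the core subunit that binds NADH and flavin (chromosome 19, 4007384 to 4012806, mm10), was at 9.99, 9.75 and 9.68 in glioma and 7.83, 8.93 and 8.68 in normal libraries. Its difference was 1.33 (SE 0.68, n = 3 each, limma adjusted p = 0.875), and the groups were 0.75 apart at their nearest values. Ndufs7, whose iron-sulfur cluster hands electrons to ubiquinone (chromosome 10, 80249121 to 80256794), was at 8.5, 8.99 and 8.82 in glioma and 8.33, 5.82 and 6.47 in normal libraries. The glioma values of Ndufs7 lay within an SD of 0.25 while the normal values spread with an SD of 1.30, with normal replicate 1 near the glioma libraries. Its difference was 1.90 (SE 1.15), and 2.63 without that library.

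Of the other core subunits, Ndufs1, the largest iron-sulfur protein of the complex, was at 9.85, 12.19 and 11.34 in glioma and 8.57, 11.28 and 11.01 in normal libraries, so the groups overlapped. Ndufs3 was at 9.02 ± 0.42 in glioma and 7.98 ± 0.64 in normal libraries, and Ndufv2, an iron-sulfur subunit beside Ndufv1, at 10.54 ± 0.31 and 10.15 ± 1.03 (SD, n = 3 each). In Ndufs3, 53.0% of the 50-base runs at the transcript's end also occur in a processed pseudogene, so its reads may be shared. Ndufs8, also an iron-sulfur subunit, was at 8.85, 9.75 and 8.23 in glioma and 0, 10.45 and 9.91 in normal libraries. Its difference was 2.16 with normal replicate 1 and -1.24 without it, so its direction is set by a listed 0.

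Of the 29 accessory subunits of complex I, 19 had a difference above 0, with a median of 0.50, and 16 did without normal replicate 1. Ndufa12 of the matrix arm was at 9.73, 8.85 and 8.84 in glioma and 8.08, 5.19 and 7.42 in normal libraries, a difference of 2.24 (SE 1.14). Ndufc2 of the membrane arm was at 10.24, 10.62 and 11.98 in glioma and at 9.83, 9.65 and 9.72 in the closely grouped normal libraries. Ndufb11, an X-linked membrane arm subunit, was at 10.11, 9.89 and 10.41 in glioma and 9.61, 9.73 and 9.52 in normal libraries. In all 3 genes every glioma library stood above every normal library, by 0.76, 0.42 and 0.17 at the nearest values.

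Ndufab1, the mitochondrial acyl carrier protein that is bound in complex I and also serves lipoic acid synthesis (chromosome 7, 122085403 to 122101886), was the lowest member of the complex. It was at 4.17, 5.47 and 7.54 in glioma and 0, 0 and 3.20 in normal libraries. The glioma values of replicates 1 and 2 lie below the lowest value that normal replicate 1 can show.

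Ndufb3, a membrane arm subunit, was the complex I gene whose libraries lay wholly lower in glioma, at 10.76, 10.43 and 10.29 against 10.81, 11.57 and 11.75 in normal libraries. The groups were 0.05 apart at their nearest values, and the difference was -0.88 (SE 0.48, limma adjusted p = 0.875), or -1.16 without normal replicate 1. Ndufa2 and Ndufs6 were the most abundant complex I genes over all libraries. Ndufa2 was at 11.69, 11.15 and 11.03 in glioma and 12.63, 11.82 and 11.66 in normal libraries, and Ndufs6 at 12.19, 11.16 and 10.42 in glioma and 12.71, 10.36 and 10.53 in normal libraries. Ndufa10, Ndufa9 and Ndufa7 also had differences below 0 (-0.84, -0.72 and -0.63), each with overlapping groups. Ndufa8 and Ndufb10 were, like Ndufs8, listed at 0 in normal replicate 1 and above 8 in the other normal libraries, and their differences of 2.63 and 2.28 became -0.15 and -1.26 without it.

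Complex II, succinate dehydrogenase, also serves as an enzyme of the TCA cycle, and all of its subunits are nuclear. Its library medians were 9.06, 9.26 and 10.51 in glioma and 7.67, 9.84 and 9.66 in normal libraries, so the groups overlapped. Sdha, the flavoprotein, was at 10.85, 10.05 and 10.84 in glioma and 7.43, 10.24 and 10.34 in normal libraries, and the iron-sulfur subunit Sdhb at 8.81, 9.37 and 11.36 in glioma and 8.29, 10.34 and 10.07 in normal libraries. Sdhc, a membrane anchor, was at 6.98, 9.15 and 10.18 in glioma and 0, 8.80 and 9.20 in normal libraries. The other anchor, Sdhd, was at 9.30, 6.74 and 9.73 in glioma and 7.90, 9.43 and 9.25 in normal libraries. Normal replicate 1 was the lowest library for Sdha, Sdhb and Sdhc, and no subunit separated the groups. The differences were 1.24, 0.28, 2.77 and -0.27 for Sdha to Sdhd with limma, and 0.29, -0.36, -0.23 and -0.75 without that library.

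Complex III, the cytochrome bc1 complex, takes electrons from ubiquinol. Its library medians were 9.09, 9.50 and 11.01 in glioma and 8.92, 9.45 and 9.65 in normal libraries, with glioma replicate 3 above the rest. No complex III gene separated the groups. Uqcrh, the hinge protein and the most abundant of them, was at 11.86, 11.02 and 11.07 in glioma and 11.79, 11.83 and 11.59 in normal libraries. Uqcrq, a small membrane subunit, was at 10.54, 10.46 and 11.09 in glioma and 11.16, 9.14 and 9.25 in normal libraries, where its highest value is that of normal replicate 1. Its difference was 0.85 (SE 0.67), and 1.51 without that library. Uqcr10, another small subunit, was at 8.20, 9.91 and 10.76 in glioma and 0, 9.60 and 9.82 in normal libraries, and its difference of 3.15 became -0.09 without the listed 0. The Rieske iron-sulfur protein gene Uqcrfs1 was at 9.11 ± 0.80 in glioma and 8.96 ± 0.22 in normal libraries, and Cyc1, the gene of cytochrome c1, at 9.64 ± 1.22 and 8.65 ± 0.72 (SD, n = 3 each). Uqcrc2, a core protein, reached 12.13 in glioma replicate 3 and lay between 8.82 and 10.03 in the other libraries.

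Cycs, the mobile carrier between complexes III and IV and a trigger of apoptosis when released (chromosome 6, 50562563 to 50566538), was at 8.52, 9.32 and 9.03 in glioma and 8.38, 7.42 and 7.86 in normal libraries. Each glioma value stood above each normal value, by 0.14 at the nearest. Its difference was 1.07 (SE 0.85, limma adjusted p = 0.875), and 1.32 without normal replicate 1. Cyct, the testis form of cytochrome c, was listed at 0 in all 6 libraries.

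Complex IV, cytochrome c oxidase, held both members with an unadjusted p under 0.05. Its 13 tested genes had library medians of 10.94, 10.70 and 11.44 in glioma and 10.15, 10.22 and 10.36 in normal libraries, and 11 of the 13 had a difference above 0, with and without normal replicate 1. Cox7a2, the subunit 7a isoform found in most tissues (chromosome 9, 79755361 to 79759878), had the smallest p of all members. It was at 11.53, 11.21 and 11.68 in glioma and 9.39, 9.04 and 10.07 in normal libraries. The groups were 1.14 apart at their nearest values, while the SDs were 0.24 in glioma and 0.53 in normal libraries. Its difference was 1.97 (SE 0.51, limma adjusted p = 0.875), and between 1.74 and 2.26 with any 1 library left out, where its unadjusted p always passed 0.05. None of the 50-base runs at the end of its transcript occur in another annotated gene.

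Cox4i2, an isoform of subunit 4 described in lung and under low oxygen (chromosome 2, 152754173 to 152765037), was the gene that differed the other way. It was listed at 0 in all 3 glioma libraries and was at 8.12, 4.98 and 3.74 in normal libraries (limma adjusted p = 0.875). No fold is given against a group listed at 0, and the values of normal replicates 2 and 3 lie below the lowest value above 0 in glioma replicate 3, which was 5.22. Its unadjusted p no longer passed 0.05 without any 1 of the glioma libraries or without normal replicate 2, nor with a pseudocount of 16. With all values raised to a shared floor of 7.43, the lowest value above 0 in normal replicate 1, its difference was -0.23. In mouse brain Cox4i2 is known as a transcript of pericytes, the cells that wrap capillaries, as is Ndufa4l2, which encodes a protein related to Ndufa4. Ndufa4l2 was at 4.01, 6.48 and 5.22 in glioma and 0, 7.53 and 7.17 in normal libraries. Of 9 pericyte and smooth muscle markers, 7, 9 and 8 were above 0 in glioma and 8, 9 and 9 in normal libraries. Their summed level was 13.30, 13.84 and 13.98 in glioma and 14.32, 12.61 and 12.98 in normal libraries on the log2 scale, so it overlapped between groups. Abcc9 and Rgs5, the highest of them, were at 10.58, 10.94 and 13.14 and at 12.43, 12.21 and 10.03 in glioma, against 10.76, 9.04 and 9.78 and 13.47, 9.56 and 11.04 in normal libraries. Of the 9 markers, Myh11, a smooth muscle myosin, was the 1 whose groups did not overlap, at 0, 8.36 and 0 in glioma and 9.07, 9.40 and 9.49 in normal libraries. The other smooth muscle markers Acta2 and Tagln had differences of -0.02 and -0.49, with overlap. Among the remaining pericyte markers the differences were -1.88 for Cspg4, -0.99 for Pdgfrb, -0.31 for Vtn, 0.20 for Rgs5, 1.69 for Abcc9 and 1.78 for Kcnj8, all with overlap. The part of pericyte and smooth muscle RNA in the Cox4i2 result was not tested, and fewer cells of a type and less RNA per cell cannot be told apart in sorted bulk samples.

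The partner isoform Cox4i1, found in all tissues, was at 11.62, 11.09 and 11.87 in glioma and 11.08, 10.62 and 10.67 in normal libraries. Its groups only just failed to overlap, at 11.09 in glioma replicate 2 and 11.08 in normal replicate 1. Cox7b, an X-linked subunit, was at 9.33, 10.30 and 11.18 in glioma and 8.94, 9.09 and 9.23 in normal libraries, 0.10 apart at the nearest values. Its normal libraries were tightly grouped (SD 0.15), and its glioma libraries were spread (SD 0.92). Cox7a2l, described as a factor for supercomplexes of complexes III and IV, was placed with complex IV by its symbol. Whether it acts so in this strain was not tested. It was the most abundant gene placed there. Its levels were 13.06, 11.08 and 12.05 in glioma and 13.62, 11.87 and 12.03 in normal libraries, with overlapping groups. Cox6c, the next in level, was at 11.64 ± 0.65 in glioma and 11.17 ± 0.74 in normal libraries (SD, n = 3 each).

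**Figure D3:**
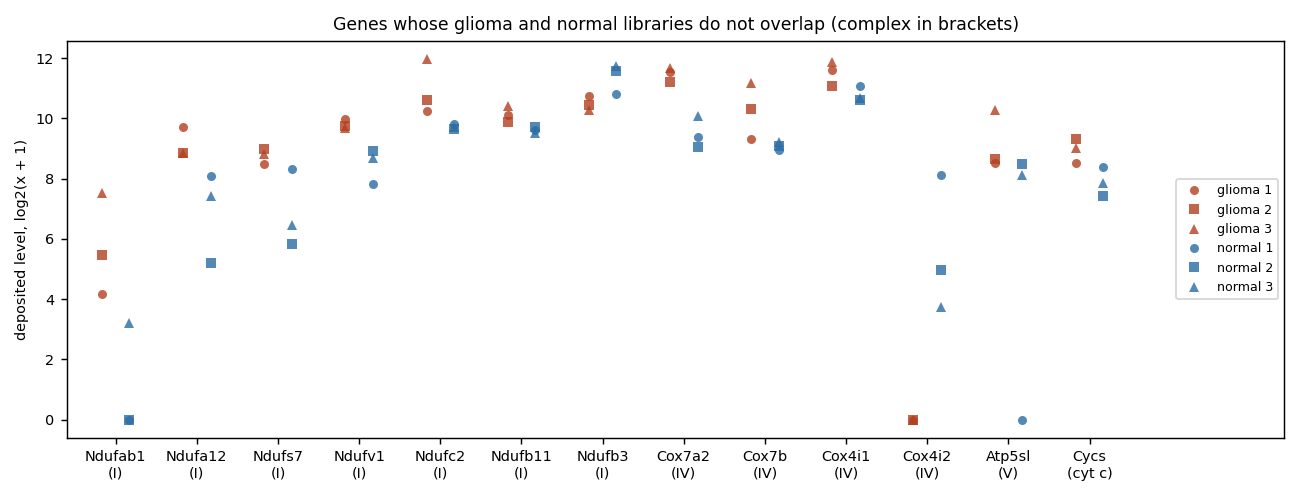
Level, log2(x + 1), of the 13 tested genes whose glioma libraries all lie above or all below the normal libraries, with 1 symbol per replicate. Cox7a2 has a clear gap of 1.14 between its groups, Cox4i1 almost none, and Cox4i2 is listed at 0 in every glioma library.

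Paralogs of complex IV differed widely in level in these sorted bulk libraries. The isoforms found in most tissues, Cox6a1, Cox6b1, Cox7a2 and Cox8a, were above 9 in all 6 libraries. Cox6a1 was at 11.30 ± 0.55 in glioma and 10.96 ± 1.12 in normal libraries, Cox6b1 at 10.55 ± 0.85 and 10.35 ± 0.19, and Cox8a at 10.87 ± 0.46 and 10.44 ± 0.61 (SD, n = 3 each). The muscle isoforms Cox6a2 and Cox8b and the testis isoforms Cox7b2 and Cox8c were listed at 0 in every library. Cox7a1, the heart and muscle isoform, was at 2.37 in normal replicate 3 and listed at 0 elsewhere. Cox6b2, known as a testis isoform, was at 11.70 in glioma replicate 1 and 7.72 in glioma replicate 2, and listed at 0 in glioma replicate 3 and in all normal libraries. In glioma replicate 1 it stood above Cox6b1, which was at 9.90 there. Cox6b2 was above 0 in fewer than 3 libraries and so was not tested. No 50-base run from its transcript ends occurs in another annotated gene, and no other gene overlaps its exons in GENCODE M21 (chromosome 7, 4751792 to 4753094).

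**Figure D4:**
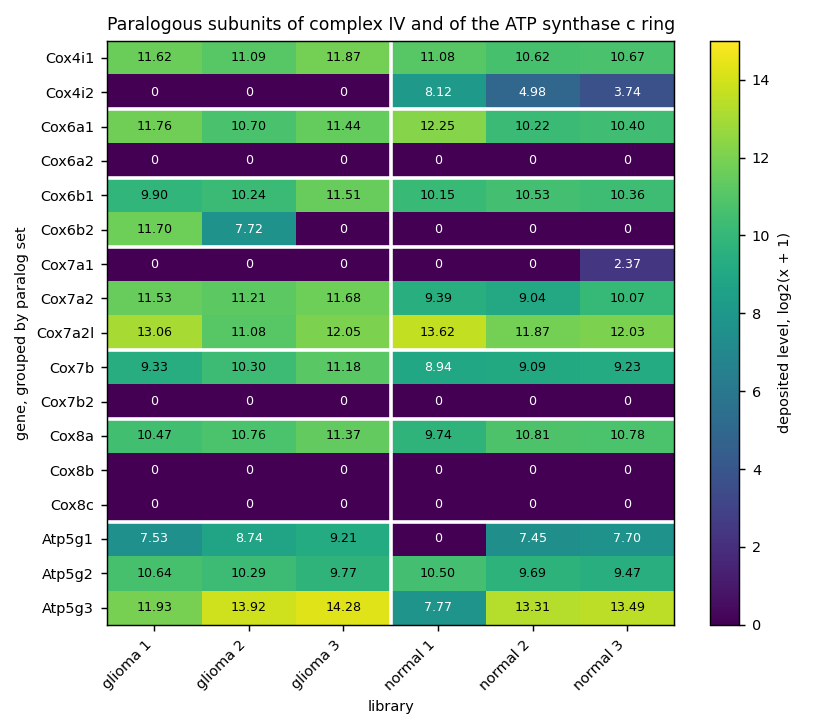
Level, log2(x + 1), of paralogous subunits of complex IV and of the c ring of ATP synthase in the glioma (left) and normal (right) libraries, with the value printed in each cell. Muscle and testis isoforms were listed at 0, apart from Cox6b2 at 11.70 and 7.72 in 2 glioma libraries and Cox7a1 at 2.37 in 1 normal library.

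Complex V, the ATP synthase, consists of the catalytic F1 head and of the membrane-embedded Fo part with its c ring and side stalk. Library medians over its 17 genes were 10.64, 10.26 and 10.63 in glioma and 10.03, 10.03 and 9.93 in normal libraries, without overlap. Over the 12 genes above 0 in every library they were 11.69, 10.27 and 10.72 in glioma and 10.51, 10.35 and 10.24 in normal libraries, which do overlap. Of the 17 genes, 12 had a difference above 0, with and without normal replicate 1. Atp5a1, the alpha subunit of F1 and one of the 2 most abundant complex V genes, was at 13.11, 11.90 and 12.37 in glioma and 11.98, 11.09 and 11.19 in normal libraries. Its difference was 1.04 (SE 0.50, limma adjusted p = 0.875), and 1.32 without normal replicate 1. Of the other F1 genes, the catalytic beta subunit Atp5b was at 12.08 ± 0.48 in glioma and 11.61 ± 0.98 in normal libraries, and the gamma subunit Atp5c1, the rotor shaft, was at 9.84 ± 0.50 and 9.84 ± 0.06 (SD, n = 3 each).

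The c ring is encoded by the paralogs Atp5g1, Atp5g2 and Atp5g3, which give the same mature protein. Atp5g3 was the highest member of complex V, at 11.93, 13.92 and 14.28 in glioma and 7.77, 13.31 and 13.49 in normal libraries. Atp5g2 was at 10.23 ± 0.44 in glioma and 9.89 ± 0.54 in normal libraries (SD, n = 3 each), and Atp5g1 at 7.53, 8.74 and 9.21 in glioma and 0, 7.45 and 7.70 in normal libraries. The order Atp5g3, Atp5g2, Atp5g1 held in all libraries but normal replicate 1, where Atp5g2 was highest. Of the 50-base runs at the transcript ends, 55.5% in Atp5g2, 36.0% in Atp5g1 and 0% in Atp5g3 occur in other annotated genes, so the first 2 may share reads with pseudogenes.

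In the side stalk, Atp5f1 was at 9.77, 10.44 and 12.25 in glioma and 0, 10.03 and 9.93 in normal libraries. Its difference was 4.17 (SE 2.43) with the listed 0 and 0.84 without normal replicate 1. Atp5j, the coupling factor 6 gene, was at 2.62, 12.24 and 13.66 in glioma and 0, 11.20 and 11.41 in normal libraries, so normal replicate 1 and glioma replicate 1 were both low. Atp5l, a membrane subunit, had the lowest difference of the complex, at -0.96, with 10.79, 9.61 and 9.35 in glioma and 10.52, 11.12 and 11.01 in normal libraries. Of its 50-base runs, 70.1% occur in other genes. Atp5sl and Atp5s match the symbol pattern but are not enzyme subunits, and Atp5sl is known as a factor for complex I assembly. Atp5sl was at 8.53, 8.64 and 10.28 in glioma and 0, 8.48 and 8.12 in normal libraries, 0.05 apart at the nearest values.

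Members varied between libraries in different ways. Of the 68 members above 0 in all libraries, glioma replicate 3 was the highest of 6 for 25, normal replicate 1 for 18 and glioma replicate 1 for 14, while normal replicate 2 was the lowest for 24. Normal replicate 1 lay more than 1 log2 unit above the mean of the other normal libraries for 23 of the 68 and more than 1 unit below for 13. The median distance from that mean was 1.09, against 0.17 between normal replicates 2 and 3. Glioma replicate 3, which was highest in 7 of 12 such genes of complex IV and 4 of 8 of complex III, also had the highest summed level of 13 microglia and macrophage markers. That sum was 9.32, 8.0 and 13.53 in glioma and 11.26, 7.62 and 7.0 in normal libraries, with 11, 2 and 11 markers above 0 in glioma and 5, 5 and 8 in normal libraries. C1qa and C1qc, the highest with Cx3cr1, were at 11.69 and 10.98 in glioma replicate 3. Cx3cr1 was at 9.08 there and higher in normal replicate 1, at 9.65. Itgam and Ptprc were listed at 0 in glioma replicate 3 and were at 6.75 and 7.92 in glioma replicate 1. Summed marker levels of fibroblasts, neurons, astrocytes, oligodendrocytes and erythroid cells also overlapped between groups, and the erythroid sum was highest in glioma replicate 1, at 18.65, against 13.77 to 16.49 in the others. The part of other cells' RNA in the subunit levels was not tested. Without glioma replicate 3 the median differences of complexes III and IV were 0.16 and 0.27.

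Genes around the respiratory chain also gave no call in the limma fit. Assembly factors of complex I had a median difference of -0.38 over 9 tested genes, where 1 of the 9 had an unadjusted p under 0.05 and lay lower in glioma, against 1.94% of all genes. The gene is Ecsit, which also acts in Toll-like receptor signalling, at 7.06 ± 2.45 in glioma and 10.32 ± 0.31 in normal libraries (SD, n = 3 each). Timmdc1, with the next smallest p, was at 2.22, 0 and 0 in glioma and 0, 5.42 and 5.24 in normal libraries. Complex III factors had a median of -0.65 over 5 genes, with groups that did not overlap for Ttc19, higher in glioma (6.91% of all genes), and Uqcc3, lower in glioma (6.37% of all genes). Medians were -0.06 over 3 complex II factors, among them Sdhaf1 and Sdhaf2, 0.54 over 18 complex IV factors and 1.53 over 4 complex V factors with the inhibitor gene Atpif1. List medians here and in the next paragraph include normal replicate 1. In that library 8 of 21 complex IV factors were above 0, against 16 and 21 in normal replicates 2 and 3. Without it the differences of Atpaf1, Atpaf2 and Tmem70 went from 1.39, 2.37 and 1.66 to -0.99, -0.14 and -1.48. That of Atpif1 went from 1.18 to 2.17. Sco2, a copper chaperone of complex IV, was at 6.28, 6.31 and 7.37 in glioma and 0, 4.68 and 4.06 in normal libraries.

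Of 17 TCA cycle and pyruvate dehydrogenase genes, 1 was higher in glioma at an unadjusted p under 0.05, 0 were lower, and 4 had glioma libraries wholly above the normal ones. Over all genes tested, 2.35% were higher at that p, 1.94% were lower, and 6.91% had glioma libraries wholly above the normal ones. Cs, citrate synthase, was at 11.51, 9.99 and 11.25 in glioma and 9.27, 7.77 and 8.45 in normal libraries, a difference of 2.42 (SE 0.70, limma adjusted p = 0.875). Pdhb, a subunit of pyruvate dehydrogenase, was at 9.18, 8.72 and 9.16 in glioma and 0, 5.36 and 7.38 in normal libraries. Regulators of mitochondrial biogenesis had a median difference of 0.03 over 11 tested genes. Nrf1 was at 9.96, 10.24 and 10.48 in glioma and 9.43, 10.32 and 10.31 in normal libraries. Tfam, a factor for the transcription and packing of mitochondrial DNA, was at 6.48, 0 and 8.25 in glioma and 8.42, 8.48 and 8.40 in normal libraries. The coactivator gene Ppargc1b was at 2.62, 0 and 0 in glioma and 0, 4.77 and 4.49 in normal libraries. Coenzyme Q synthesis genes had a median of 1.13 over 8 tested genes. Of the 10 such genes in the data, 2 were above 0 in normal replicate 1, against 7 and 9 in normal replicates 2 and 3. The smallest p-values were those of Pdss1, at 0, 7.77 and 6.74 in glioma and 0, 0 and 2.97 in normal libraries, and of Coq5, whose values in glioma all exceeded those in normal libraries. Of 13 subunit genes encoded in mitochondrial DNA, 0 were found in the data under the symbols sought, so they could not be analysed.

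Members with and without a motif match are set side by side as a description, with no test, since they share libraries. The 9 tested members with the NRF1 letters had a median difference of 0.35, with 7 above 0, and the 55 with a window and no match had 0.61, with 40 above 0. The 12 tested members with the ETS letters had 0.04, with 6 above 0, against 0.68 for 52 without, with 41 above 0. The 5 with the CREB and ATF letters had 0.50, with 4 above 0, against 0.52 for 59 without, with 43 above 0. Atp5j, the member with the YY1 letters, had 1.97, against a median of 0.50 for 63 without. Cycs and Cox6a1, whose windows are shown above with the NRF1 letters, had differences of 1.07 and 0.34, and Cox7a2, with no match, had 1.97.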

How the data were processed

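Total RNA of the sorted cells went into 3′ end libraries (Lexogen QuantSeq), per the labels' protocols. The submitters' processing notes list Bowtie2, edgeR and mm10 with no role. How reads were counted, on which strand and annotation, and how they were normalized is not given in the sources used here. The deposited values are log2 levels, 1 per gene and library. The highest value is the same in every library, and at least 99.97% of back-transformed values above 0 lie within 0.02, after multiplication by 6, of whole numbers. For this reason the values were taken to be log2(x + 1) of levels that the authors quantile-normalized over 6 libraries, which hides depth. Genes that reached a back-transformed value of 1 in 3 or more libraries were fitted in limma 3.58.1 (R 4.3.3), using a variance prior that follows the mean level, group as the term and 4 residual degrees of freedom, with Benjamini-Hochberg adjustment over all genes and a threshold of 0.05. The fit was run on simulated data, where the check required of it used a spread below the members' median within-group SD of 0.87. That checks the code and does not show which differences 3 against 3 libraries could detect in these data. Positions are from GENCODE M21 (mm10), where all 86 members were found, 1 under another symbol. Shared sequence was counted as 50-base runs of the last 300 bases of each coding transcript that occur in other annotated transcripts; 56 members had none. Exons of 26 members overlap a gene on the opposite strand, and reads of such pairs may be mixed.

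Named members were all with groups that do not overlap, the 2 highest and the 2 with the smallest p per complex, core complex I, complex II, Cycs and the paralog sets, and of each other list the 2 smallest p; a few more were chosen after their values were seen. Members, lists and motifs were chosen with earlier results of these data known. The values of 1 member are not reported here; it stays in the counts and medians.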

Additional observations from a re-analysis of the deposited data

How the results depend on the processing

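The call of 0 genes held under all alternatives except a variance prior without a mean trend, which called 15 genes, none of them a member. Of 80 tested members, 2 had an unadjusted p under 0.05 in the reported fit, where 4.29% of all genes did. With values raised to a shared floor of 7.43, 6 of 80 did, against 5.52% of all genes. Over genes above 0 in all libraries, 4 of 68 did, against 6.02%. With a pseudocount of 16, 1 of 80 (Cox7a2) did, against 5.43%. With a library left out, 2 to 12 of 80 did. The 12 came without normal replicate 1, where 10.2% of all genes reached that p. Without glioma replicate 1 it was 4 of 80, against 5.74% of all genes. Members whose groups do not overlap, 13 of 80 in the reported comparison, numbered 15 to 35 of 80 with a library left out. They were 30 of 80 without glioma replicate 1, 20 of 80 without glioma replicate 2 and 35 of 80 without normal replicate 1. The shares of all genes were 27.1%, 22.2% and 35.4%. With centred libraries such members numbered 16 of 80, 15 of them higher in glioma, against 13.2% of all genes. With the shared floor they numbered 11 of 80, 10 of them higher, against 9.19%. Whether replicate numbers pair the libraries is not known. The r of same-numbered deviations from the group means was 0.19, 0.15 and 0.06, and glioma replicate 2 went best with normal replicate 3. Deviations from a mean of 3 libraries depend on each other, so these r cannot settle it. With the replicate block 5 of 80 members had an unadjusted limma p under 0.05, against 5.14% of all genes, and 0 genes passed the adjusted threshold.

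The median difference of complex I was 0.37 with the shared floor, 0.66 with centred libraries and 0.40 to 0.61 with a library left out. With a library left out it was -0.29 to 1.18 for complex II, 0.06 to 0.97 for complex III, 0.25 to 0.64 for complex IV and 0.38 to 0.67 for complex V. For complex V it was 0.66 over members without shared end sequence, an alternative chosen after seeing the data. The cause of these shifts was not tested. Of 36 named and tested members, 25 kept their sign in every alternative. Ndufs8 was at -0.32 with the shared floor and at -1.24 to 3.99 with a library left out. The ranges were -0.02 to 2.84 for Atp5g3, -0.03 to 0.99 for Cox6a1, -0.28 to 0.53 for Cox6b1, -0.94 to 0.11 for Cox7a2l, -0.02 to 1.47 for Ndufs1, -0.41 to 0.81 for Ndufs6, -0.47 to 0.80 for Sdhb, -0.23 to 4.37 for Sdhc, -0.84 to 0.65 for Sdhd and -0.09 to 4.82 for Uqcr10.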
